A study of Mus musculus with 37 samples.

Results

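Phagocytic receptor genes were followed through Toll-like receptor 4 (TLR4) activation in bone marrow-derived macrophages (BMDMs) with and without Arntl, the gene that encodes the circadian clock transcription factor Bmal1. They were chosen by name: the rows for Mertk, Axl, Gas6, Pros1, Mfge8, Fcgr1, Fcgr2b, Fcgr3, Fcgr4 and Fcer1g, 10 of the 24016 genes in the expression table. The rule uses names alone, but the genes were picked with earlier results of these data known.

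Macrophages remove dying cells by efferocytosis, in which phosphatidylserine exposed on the dying cell is recognized directly or through soluble bridging proteins. Gas6 and protein S (Pros1) bridge phosphatidylserine to the TAM receptor tyrosine kinases, which include Mertk and Axl, and Mfge8 bridges it to alpha-v integrins. Cells and particles coated with IgG are instead taken up through Fc gamma receptors, of which Fcgr1, Fcgr3 and Fcgr4 are activating and signal through the common gamma chain Fcer1g, whereas Fcgr2b carries its own inhibitory motif.

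PolyA RNA was sequenced from WT and Arntl-/- BMDMs, the latter titled BmalKO, at 0, 6, 24 and 48 h after Kdo2-lipid A (KLA), a defined part of lipopolysaccharide that activates TLR4, so that the 0 h cells had received none. The mice were males aged 6 to 9 weeks, given as C57BL/6J for both genotypes by the labels, while the study's methods put the Arntl-/- line on a C57BL/6 background without naming the substrain. The deletion was present in the whole animal, and marrow was grown with M-CSF for 6 days before KLA. The labels give the WT mice as purchased C57BL/6J, while the study also describes them as littermates. Each of the 8 conditions had 1 library, and how many mice or cultures each came from was not stated, so no difference below has a replicate check and no test between conditions was made. There was no library of cells kept without KLA to 6, 24 or 48 h, so the effects of KLA and of time in culture cannot be told apart.

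The libraries held 8587560 to 27036783 reads on genes, with WT at 6 h the deepest and Arntl-/- at 48 h the shallowest. FPKM was divided by size factors of 0.918 to 1.13, and the quotient is called the level. The 9 macrophage markers examined all passed a minimum of 100 scaled reads in at least 1 WT library, and their summed level was between 16399 and 40768 (Fcgr1 and Mertk are among the 9). Of the other cell types, mast cells and basophils, which also use Fcer1g, had Fcer1a, Ms4a2, Mcpt4 and Tpsb2 of 6 markers at 0 in all 8 libraries. The remaining markers, Cpa3 and Cma1, had at most 5 and 6 reads. Cpa3 was seen in WT cells at 48 h and in Arntl-/- cells at 0, 6 and 48 h, and Cma1 in Arntl-/- cells at 6 h. Of the 7 neutrophil markers in the table, Mpo was at 0 as well and 2 were analysed. Mmp8 made up most of their sum and reached 1941. It was at 1028 in Arntl-/- against 1055 in WT cells at 0 h, at 1097 against 691 at 6 h, at 1195 against 1272 at 24 h and at 1941 against 1642 at 48 h, and the sum differed by 0.08, 0.67, -0.05 and 0.26. Ngp and Ltf, picked after their values were seen, were higher in Arntl-/- than WT cells at the first 3 times. Ngp was at 83.4 against 37.2 at 0 h, 55.2 against 33.3 at 6 h and 38.4 against 17.1 at 24 h. Ltf was at 42.4 against 18.9, 18.4 against 7.67 and 25.4 against 17.5, and both were at 0 to 2.70 at 48 h. Neutrophils also express Fc receptors, and their part in the results was not tested. The summed markers of B cells, T cells and dendritic cells reached at most 60.2, 14.8 and 10.9. The B cell sum, mostly Cd79b on at most 170 reads, differed between genotypes by -0.01, 0.15, 0.99 and 0.70 at the successive times. The part of these cells was not tested either. Arntl itself was at 32.3 to 38.7 in the WT libraries and 11.3 to 20.2 in the Arntl-/- libraries, lower but not absent, from 75 to 136 reads.

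All 10 genes passed the minimum of 100 scaled reads, as did 10487 genes in all. The plot of levels by library shows each of them. In bulk RNA, fewer cells of a type and less RNA per cell cannot be told apart, and this holds for each level given here. Intervals in brackets are 95% intervals for the counting of reads alone and hold nothing of the variation between cultures or mice.

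**Figure D1:**
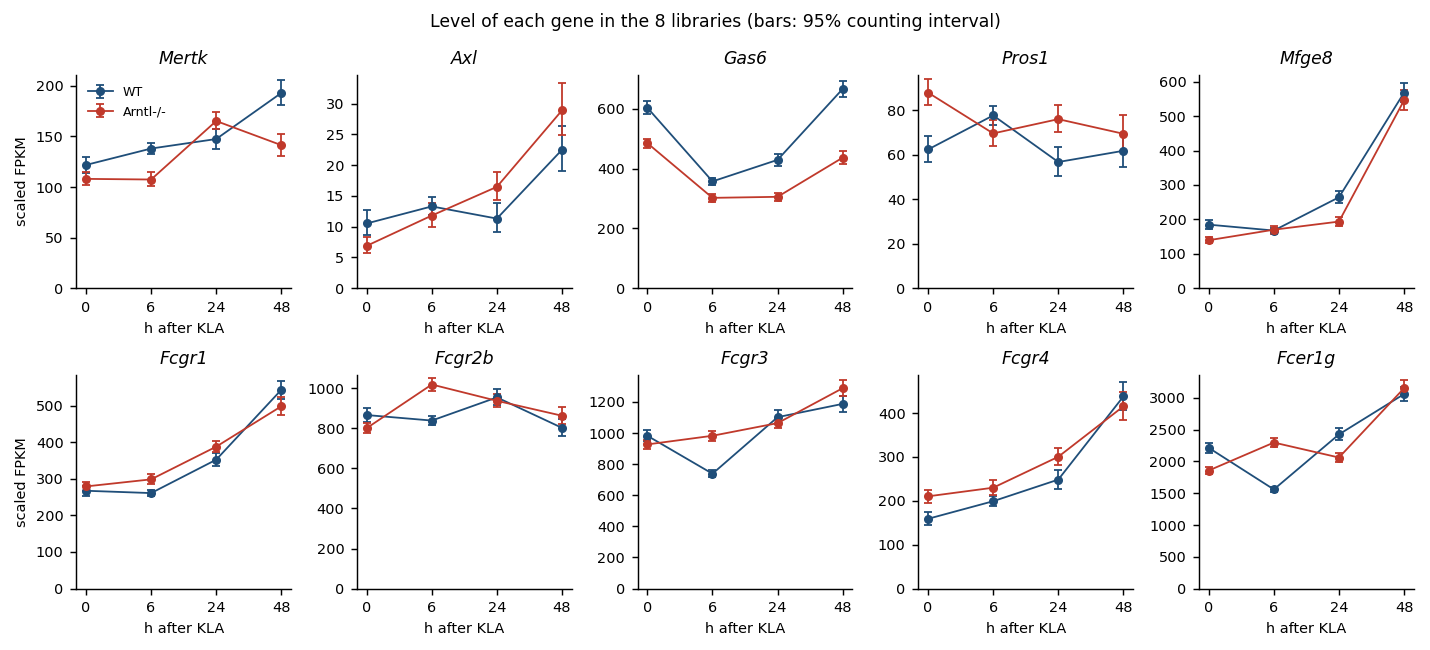
Level of the 10 genes (FPKM divided by the size factor, linear axis from 0) against hours after KLA, with 1 point per library, WT in blue and Arntl-/- in red, and bars for the 95% counting interval. Gas6 was lower in Arntl-/- at each of the 4 times, and Mfge8 reached 568 in WT and 546 in Arntl-/- cells at 48 h.

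Between the genotypes few of the 10 genes differed by as much as 1.5-fold. At 0 h it was 1 gene, Axl, lower in Arntl-/- cells, where 5.18% of all genes analysed were past 1.5-fold in either direction and 1.98% were lower. With the values as deposited its difference was -0.52, short of that line. At 6 h it was 0 genes against 4.67% of all genes, and at 24 h again 0 against 6.7%. At 48 h it was 1 gene, Gas6, lower in Arntl-/- cells, against 11.7% in either direction and 5.91% lower. After a lowess correction for expression level its difference was -0.58, and as deposited -0.57, both just short of 1.5-fold. On a wider background of 15855 genes, those reaching an FPKM of 1, the shares past 1.5-fold in either direction were larger, at 21.6, 20.8, 22.3 and 27.4% for the 4 times. No gene of the 10 had all its Arntl-/- levels above or below all its WT levels, which was so for 0.667% and 0.62% of all genes. The median log2 difference over the 10 genes was -0.14, 0.11, 0.06 and -0.01 at the successive times, beside medians of -0.01, 0.01, 0.00 and -0.02 over all genes.

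**Figure D2:**
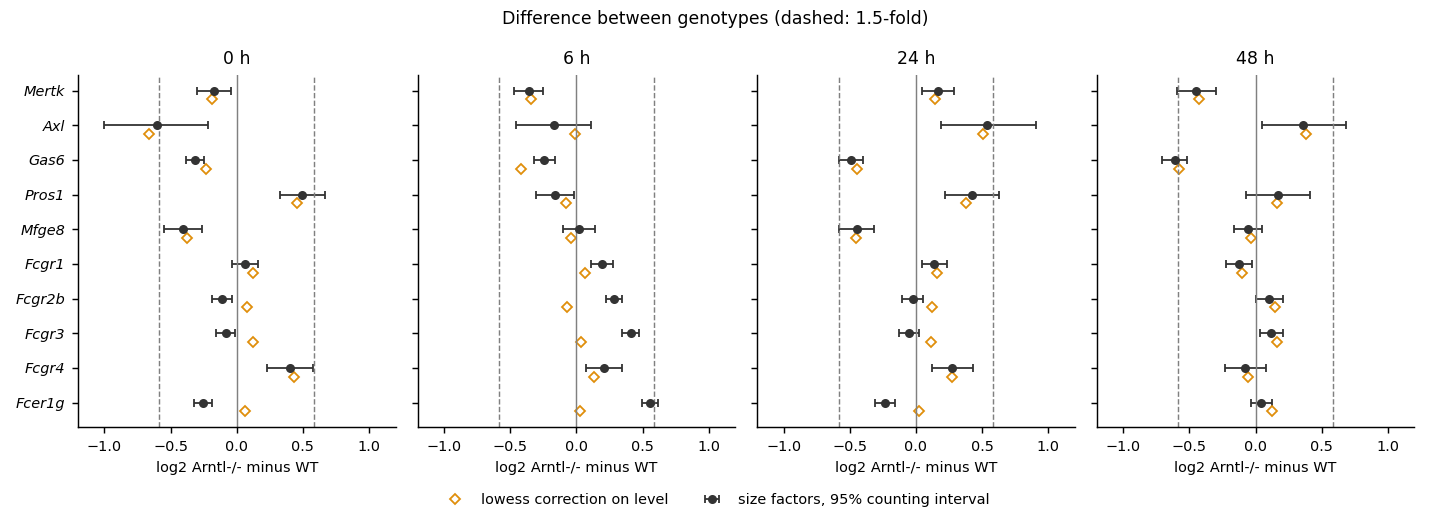
Log2 level in Arntl-/- minus WT for each gene at each time. Filled circles are ratios after size factors with 95% counting intervals, open diamonds the ratios after a lowess correction on expression level, and dashed lines mark 1.5-fold; Axl at 0 h (-0.60) and Gas6 at 48 h (-0.61) lie past them, and Fcer1g at 6 h (0.56) came to 0.02 after the correction.

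More of the 10 genes differed between times after KLA and 0 h, mostly late. At 6 h in WT cells 1 gene was at least 1.5-fold lower than at 0 h, Gas6 (3.59% of all genes), and 0 were higher (5.36%). At 24 h 1 gene was higher, Fcgr4 (8.69%), and 0 were lower (8.83%). At 48 h 5 of the 10 were higher, Mertk, Axl, Mfge8, Fcgr1 and Fcgr4, where 13.5% of all genes were, and 0 were lower (15.1%). The median change of the 10 genes in WT cells at 48 h was 0.57 on the log2 scale, beside 0.00 over all genes.

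In Arntl-/- cells the count at 6 h was 1 gene higher, Axl (3.09% of all genes), and 1 lower, Gas6 (3.39%). At 24 h Mertk and Axl were higher, 2 genes against a background of 7.8%, and Gas6 was lower (9.57%). At 48 h 5 genes were higher, Axl, Mfge8, Fcgr1, Fcgr4 and Fcer1g, against 15.2% of all genes, and 0 were lower (17.2%), with a median change of 0.62. The sets at 48 h in the 2 genotypes thus had Axl, Mfge8, Fcgr1 and Fcgr4 in common. Mertk passed 1.5-fold in WT cells, with 0.66 [0.53 to 0.80], and was at 0.39 [0.25 to 0.53] in Arntl-/- cells. Fcer1g passed it in Arntl-/- cells, with 0.76, and was at 0.47 in WT cells, changes that came to 0.01 and -0.05 after the lowess correction.

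**Figure D3:**
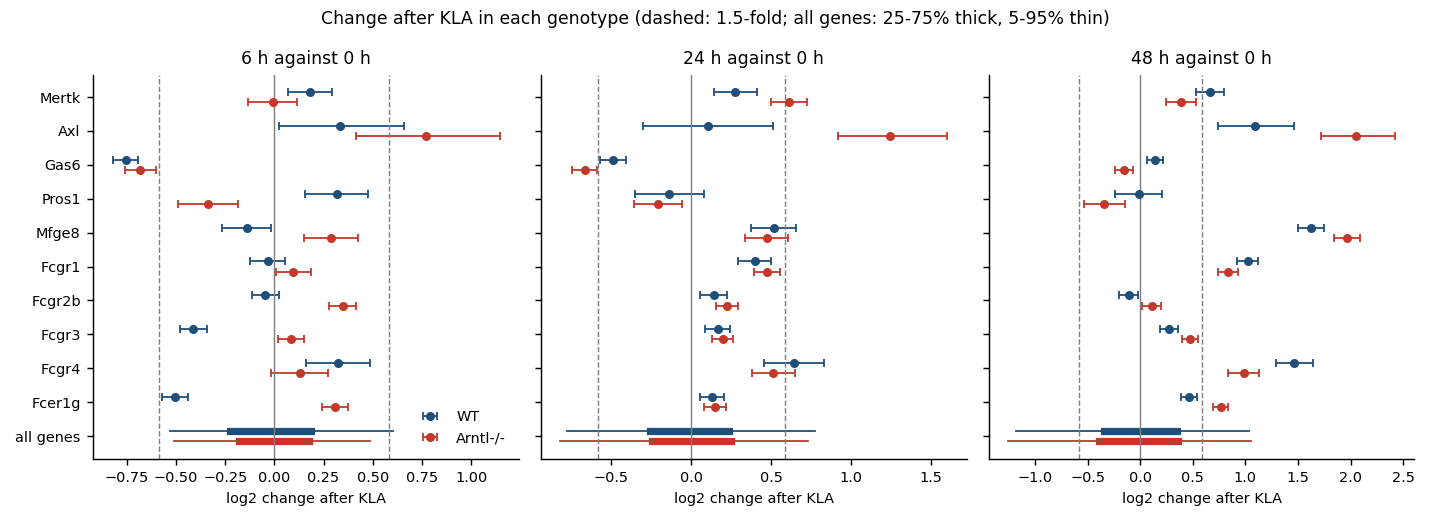
Log2 change after KLA against 0 h of the same genotype, WT in blue and Arntl-/- in red, with 95% counting intervals and dashed lines at 1.5-fold. The lowest row gives all 10487 genes (thick 25 to 75%, thin 5 to 95%), against which Mfge8 at 48 h stood at 1.62 in WT and 1.97 in Arntl-/- cells.

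Axl, a TAM receptor known to be inducible in inflamed macrophages (NM_009465, mm9 chromosome 7, 26541519 to 26573752, minus strand), had the lowest level of the 10. Its successive WT levels, from 0 to 48 h, were 10.5, 13.3, 11.3 and 22.5, on 96 to 329 reads. The Arntl-/- libraries gave 6.89, 11.8, 16.5 and 28.9, on 109 to 209 reads. The WT levels stayed close together until 48 h, while each later Arntl-/- level was above the one before it.

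The genotypes crossed in order, Axl being lower in Arntl-/- cells at 0 h by -0.60 [-1.0 to -0.22] on the log2 scale and higher at 24 h by 0.54 [0.19 to 0.91] and at 48 h by 0.36 [0.05 to 0.68]. From 0 to 48 h Axl was 2.13-fold higher in WT cells and 4.15-fold higher in Arntl-/- cells. The change at 24 h differed between the genotypes by 1.14 [0.63 to 1.66], a difference of changes that was at least 1.5-fold for 9.48% of all genes. At 48 h this difference was 0.96 [0.47 to 1.45], beside 15.6% of all genes. Both differences share the 0 h libraries, in which Axl had 113 reads in WT and 109 in Arntl-/- cells.

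Mertk, the TAM receptor that resting macrophages use to engulf dying cells (NM_008587, chromosome 2, 128524733 to 128627924, plus strand), was at 122, 138, 147 and 193 in WT cells. In Arntl-/- cells it was at 108, 107, 165 and 141. The highest WT level was that at 48 h and the highest Arntl-/- level that at 24 h, and the ranges overlapped. Mertk was lower in Arntl-/- cells at 6 h by -0.36 [-0.47 to -0.25] and at 48 h by -0.45 [-0.60 to -0.30], and slightly higher at 24 h, by 0.16 [0.04 to 0.29]. Its changes past 1.5-fold, in WT cells at 48 h and in Arntl-/- cells at 24 h, were 0.53 and 0.54 with the values as deposited and then short of that line. The ratio of Mertk to Axl within a library, per length, was 11.6, 10.4, 13.0 and 8.58 in WT cells. In Arntl-/- cells it was 15.7, 9.09, 10.0 and 4.89, so that the Mertk surplus over Axl was smallest in both genotypes at 48 h.

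Gas6, a ligand of the TAM receptors (NM_019521, chromosome 8, 13465374 to 13494535, minus strand), had levels of 603, 357, 429 and 666 in WT cells from 0 to 48 h. The Arntl-/- levels were 485, 302, 305 and 436. Both courses dipped at 6 h and came back toward the starting level by 48 h, when the change from 0 h was 0.14 for WT and -0.15 for Arntl-/-. As deposited these changes were 0.0068 and -0.33, and after the lowess correction 0.0055 and -0.34, with WT Gas6 then close to its start. Gas6 was the only one of the 10 genes that was lower in Arntl-/- cells at all 4 times, as were 7.49% of all genes, with Mfge8 joining it as deposited and after the lowess correction. Its levels nevertheless overlapped between the genotypes, the WT levels at 6 and 24 h lying below the Arntl-/- level at 0 h. The differences were -0.32 [-0.38 to -0.25], -0.24 [-0.32 to -0.16], -0.49 [-0.58 to -0.40] and -0.61 [-0.71 to -0.51], a mean of -0.41, and the last is a level 1.53-fold lower. Lower Gas6 was also seen at the 4 times after the lowess correction, by -0.23, -0.42, -0.45 and -0.58.

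Pros1, the bridging protein better known as an anticoagulant cofactor (NM_011173, chromosome 16, 62854160 to 62929166, plus strand), was at 62.3, 77.6, 56.7 and 61.8 in WT cells. In Arntl-/- cells it was at 87.9, 69.6, 76.0 and 69.4. The Arntl-/- level was higher at 0 h by 0.49 [0.33 to 0.66] and at 24 h by 0.42 [0.22 to 0.62], and lower at 6 h by -0.16 [-0.30 to -0.01]. Pros1 went up in WT and down in Arntl-/- cells between 0 and 6 h, by 0.32 and -0.34, a difference of changes of -0.65 [-0.87 to -0.43], which reached 1.5-fold for 16% of all genes. After the lowess correction it was -0.54, short of that line. With the 6 h libraries left out, every Arntl-/- level of Pros1 was above every WT level, as for 3.89% of all genes. The within-library ratio of Gas6 to Pros1 was 9.67, 4.60, 7.56 and 10.8 for WT, beside 5.52, 4.34, 4.02 and 6.29 for Arntl-/-. It was thus lower in Arntl-/- cells at each time, by little at 6 h.

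Mfge8, a secreted bridge to integrins (NM_001045489, chromosome 7, 86278654 to 86293946, minus strand), had WT levels of 185, 168, 264 and 568 and Arntl-/- levels of 139, 170.1, 194 and 546. The 48 h level was above every earlier level in both genotypes. Mfge8 was 3.07-fold higher at 48 than at 0 h in WT and 3.91-fold higher in Arntl-/- cells, which put it above 98.3% and 99.1% of all genes. Most of this fell between 24 and 48 h, with 1.1 [0.98 to 1.23] and 1.49 [1.38 to 1.61] on the log2 scale. Between genotypes Mfge8 was lower in Arntl-/- cells at 0 h, by -0.41 [-0.55 to -0.26], and at 24 h, by -0.45 [-0.58 to -0.32], while at 48 h the difference was -0.06 [-0.16 to 0.05].

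Stromal cell markers moved with several of these genes in some comparisons and apart from them in others, as the plot beside them shows. The summed level of the 9 stromal markers, 8 of which passed the read minimum, was 624, 746, 842 and 1651 for WT, beside 460, 489, 508 and 942 for Arntl-/-, with none at 0 throughout. Col1a1, which encodes a fibrillar collagen chain, was at 166 at the start and 525 at 48 h in the WT libraries, where the Arntl-/- libraries had 125 and 289. Of the 9 markers 7, 8, 8 and 6 were lower in Arntl-/- cells at the successive times. Dcn, which encodes decorin, went the other way at 0, 24 and 48 h, with 39.1, 37.0 and 91.3 against 16.8, 29.3 and 62.3, and Lum, which encodes lumican, at 0, 6 and 48 h, on at most 36 reads. The stromal sum was lower in Arntl-/- cells at each time, by -0.44, -0.61, -0.73 and -0.81, as Gas6 was, and higher at 48 h in both genotypes, by 1.40 in WT and 1.03 in Arntl-/- cells, as Mfge8 and Axl were. Between 0 and 48 h Axl changed by 2.05 in Arntl-/- and 1.09 in WT cells, and Mfge8 by 1.97 and 1.62. The stromal sum changed by 1.03 and 1.40. Axl was higher in Arntl-/- cells at 24 and 48 h, by 0.54 and 0.36, where the stromal sum was lower. In WT cells Gas6 was at 603, 357 and 429 at 0, 6 and 24 h, beside a stromal sum of 624, 746 and 842. Fibroblasts are known to express Gas6, Axl and Mfge8 as well, and the part of stromal RNA in these results was not tested.

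**Figure D4:**
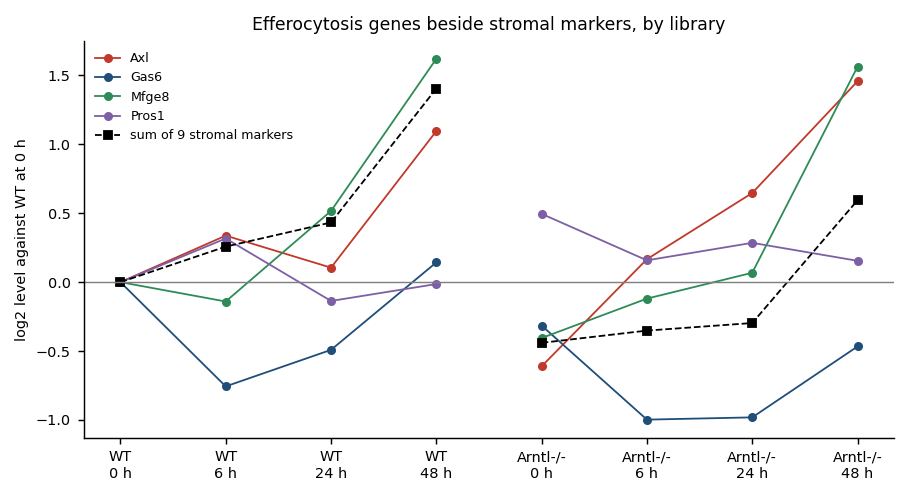
Log2 level of Axl, Gas6, Mfge8 and Pros1 and of the sum of 9 stromal markers (black squares, dashed) in each library, each against its own level in WT cells at 0 h. The stromal sum was highest in WT cells at 48 h (1.40), where Mfge8 stood at 1.62 and Gas6 at 0.14.

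Among the Fc receptors, Fcgr2b, Fcgr3, Fcgr4 and Fcer1g lie within 274 kb of chromosome 1 (172890689 to 173164480), and Fcgr1 is on chromosome 3 (NM_010186, 96086832 to 96097892, minus strand). Fcgr2b and Fcgr3, of opposite function, are so alike in their ligand-binding part that short reads cannot always tell them apart. Of the 50-base windows of their annotated transcripts, 166 occur in both genes, 10.06% of those of Fcgr2b and 10.17% of those of Fcgr3, whereas the other 8 genes shared no window with a different gene. The stretch below, the longest run shared by their coding sequences with 40 bases on each side, is printed because reads from it bear on the values of both. It does not hold all of the shared windows. Its 5 mismatches in 209 bases (97.6% identity, coding bases 238 to 446 of Fcgr2b and 205 to 413 of Fcgr3, GENCODE M1) are in capitals.
Fcgr2b: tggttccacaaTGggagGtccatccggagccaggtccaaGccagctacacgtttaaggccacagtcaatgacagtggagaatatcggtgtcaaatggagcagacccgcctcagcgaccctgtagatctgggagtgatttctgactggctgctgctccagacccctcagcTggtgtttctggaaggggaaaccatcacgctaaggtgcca
Fcgr3: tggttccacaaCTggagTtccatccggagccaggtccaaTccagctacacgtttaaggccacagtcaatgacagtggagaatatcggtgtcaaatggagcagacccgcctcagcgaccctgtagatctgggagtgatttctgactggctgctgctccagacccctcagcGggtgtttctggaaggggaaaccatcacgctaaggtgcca
Between the mismatches lies a run of 129 identical bases. How reads that fit both genes were assigned was not given in the sources used here, so the split between Fcgr2b and Fcgr3 is uncertain to that extent.

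Fcgr4, an activating receptor of intermediate affinity (NM_144559, chromosome 1, 172949057 to 172959892, plus strand), was at 159, 199, 248 and 438 in WT cells and at 210.2, 229.9, 300.3 and 415 in Arntl-/- cells. Both genotypes had a higher level at each later time, to 2.75-fold and 1.98-fold above 0 h. Arntl-/- cells started higher, by 0.40 [0.23 to 0.58] at 0 h, and were still so at 24 h, by 0.27 [0.12 to 0.43], and at 48 h the difference was -0.08 [-0.23 to 0.08]. The change by 48 h differed between genotypes by -0.48 [-0.71 to -0.25], short of 1.5-fold.

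Fcgr1, the high-affinity activating receptor, was at 268, 261, 353 and 544 in WT cells and at 279, 299, 388 and 499 in Arntl-/- cells. The 2 courses lay close together throughout, the differences between genotypes running from -0.12 at 48 h to 0.19 at 6 h. Fcgr1 was 2.03-fold higher at 48 h than at 0 h in WT cells and 1.78-fold higher in Arntl-/- cells.

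Fcgr2b, the inhibitory receptor (NM_010187, minus strand, 172890689 to 172906202), was at 867, 839, 955 and 803 in WT cells and at 801, 1019, 938 and 863 in Arntl-/- cells. Its highest level was only 1.19-fold above its lowest in WT and 1.27-fold in Arntl-/- cells. Fcgr3, an activating receptor of low affinity (NM_010188, minus strand, 172981300 to 172989534), was at 983, 739, 1102 and 1188 in WT cells and at 927, 983, 1064 and 1289 in Arntl-/- cells. Its WT level at 6 h was below its other 7. The summed level of the 3 activating receptors over that of Fcgr2b was 1.63, 1.43, 1.78 and 2.70 for WT, beside 1.77, 1.48, 1.87 and 2.55 for Arntl-/-, highest at 48 h in both genotypes. Within the activating receptors, the ratio of Fcgr4 to Fcgr3 increased between 0 and 48 h, from 0.162 to 0.369 for WT and from 0.227 to 0.322 for Arntl-/-.

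Fcer1g, the signalling chain shared by the activating receptors (NM_010185, chromosome 1, 173159703 to 173164480, minus strand), was the most abundant of the 10 per length. Its WT levels were 2215, 1560.1, 2427 and 3062, and its Arntl-/- levels 1858, 2298, 2063 and 3154. The lowest was in WT cells at 6 h, and both 48 h libraries were above all others. At 6 h Fcer1g was higher in Arntl-/- cells by 0.56 [0.50 to 0.62] and Fcgr3 by 0.41 [0.35 to 0.48], and the change of Fcer1g from 0 to 6 h differed between genotypes by 0.81 [0.72 to 0.90]. At the same time the summed macrophage markers were higher in Arntl-/- cells by 0.44, with 8 of 9 markers higher and Mertk lower, and the summed neutrophil markers by 0.67. At 0, 24 and 48 h the macrophage sum was lower in Arntl-/- cells, by -0.24, -0.10 and -0.15, with 8, 7 and 6 of the 9 markers lower. Lyz2 held much of that sum, 21812 of 40768 in WT cells at 48 h. The part of macrophage and neutrophil content in the result was not tested.

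These values are set here beside sequencing depth, whose part in them was not tested. The files' header names a limit of 3 tags per position, and Fcer1g, with 651 bases of exon, had 4.05 to 7.62 reads per base, the most in the WT library of 6 h, which was also the deepest. The header names counting on both strands, and whether the mates of a pair were counted separately was not stated. Reads per base therefore cannot be set directly against that limit. Genes with over 3 reads per base were 5.47% of those analysed in that library and 1.05 to 2.82% in the other 7. After a lowess correction for level, the Fcer1g differences between genotypes were 0.06, 0.02, 0.02 and 0.12 at the 4 times, and that of Fcgr3 at 6 h was 0.03. The change of Fcer1g from 0 to 48 h likewise came to -0.05 in WT and 0.01 in Arntl-/- cells, and that of Fcgr3 to -0.06 and -0.01. For Fcgr1 and Fcgr4 it remained at 0.93 and 1.43 in WT and at 0.70 and 0.94 in Arntl-/- cells. Under the same correction Fcgr2b was lower at 48 than at 0 h, by -0.41 and -0.33, against -0.11 and 0.11 before it. The summed macrophage markers, most of them abundant genes, were also higher at 48 h, by 0.88 in WT and 0.98 in Arntl-/- cells. Fcer1g was above 99.4 to 99.5% of genes in level, where the correction can also remove a change that the most abundant genes share.

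The promoters of the 4 genes that were past 1.5-fold at 48 h in both genotypes are shown, as the 250 bases before the RefSeq start site (GRCm38.p6, a later build than the mm9 of the files, 5′ to 3′ on the gene's strand). Capitals mark matches on either strand to GAGGAA (PU.1 core), TTCNNNGAA (GAS element) or the core of the interferon-stimulated response element.
Axl, chr7:25788734-25788983, minus strand: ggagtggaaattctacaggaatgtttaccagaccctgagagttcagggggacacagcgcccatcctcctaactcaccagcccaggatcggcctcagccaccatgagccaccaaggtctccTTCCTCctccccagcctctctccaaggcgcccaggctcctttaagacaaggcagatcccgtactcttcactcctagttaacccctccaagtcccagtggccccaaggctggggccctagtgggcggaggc
Mfge8, chr7:79149061-79149310, minus strand: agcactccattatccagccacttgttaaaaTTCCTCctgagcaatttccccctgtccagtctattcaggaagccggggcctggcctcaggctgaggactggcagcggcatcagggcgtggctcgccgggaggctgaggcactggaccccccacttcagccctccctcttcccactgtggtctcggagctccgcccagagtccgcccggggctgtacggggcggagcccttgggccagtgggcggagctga
Fcgr1, chr3:96293970-96294219, minus strand: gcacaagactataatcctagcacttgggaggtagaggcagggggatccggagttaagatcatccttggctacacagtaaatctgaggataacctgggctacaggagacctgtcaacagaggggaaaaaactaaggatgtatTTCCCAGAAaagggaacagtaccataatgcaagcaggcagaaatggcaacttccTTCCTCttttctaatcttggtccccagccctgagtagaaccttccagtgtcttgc
Fcgr4, chr1:171018676-171018925, plus strand: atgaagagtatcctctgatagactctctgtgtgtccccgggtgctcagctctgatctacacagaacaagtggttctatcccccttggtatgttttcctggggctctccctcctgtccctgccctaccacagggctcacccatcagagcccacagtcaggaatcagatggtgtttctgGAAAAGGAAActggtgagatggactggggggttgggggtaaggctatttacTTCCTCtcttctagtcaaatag

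GAGGAA occurred in each of the 4, at -130 in Axl, -220 in Mfge8, -55 in Fcgr1 and -22 in Fcgr4, and also in Fcgr3, against 23.3% of 32851 RefSeq promoters. TTCNNNGAA occurred at -109 in Fcgr1 and -92 in Pros1, against 7.02% of promoters, and the core of the interferon-stimulated response element at -73 in Fcgr4, against 2.98%. CACGTG, the E-box that Bmal1 is known to bind with its partner, was in 0 of the 10 windows and in 6.02% of promoters. AGGTCA, a nuclear receptor half-site, was in the Fcgr2b window and in 14.0% of promoters. TGANTCA, an AP-1 site, and the kappa-B site were in none of the 10 and in 6.75% and 0.356%. All 10 genes had a RefSeq promoter, Fcgr3 with 2 start sites.

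The genes of the same pathways gave the surroundings. Of 46 other efferocytosis genes (find-me and eat-me signals, receptors, engulfment and digestion), 39 were analysed. Between genotypes Thbs1, a bridging thrombospondin, was at least 1.5-fold higher in Arntl-/- cells at 0, 6 and 48 h, by 0.73, 0.78 and 1.04. Map1lc3a, a coat protein of phagosomes and autophagosomes, was lower at 0 h and higher at 48 h, by -0.89 and 1.67, from as few as 86 reads. No other gene of the list was past 1.5-fold at any time. C1qa, a complement opsonin, was lower at all 4 times by -0.55, -0.11, -0.54 and -0.40, without reaching 1.5-fold, and its partner C1qc by -0.37, -0.52 and -0.32 at 0, 24 and 48 h but not at 6 h (0.28). After KLA, 7 efferocytosis genes were higher and 4 lower at 48 h in WT cells, and 11 higher and 3 lower in Arntl-/- cells. These are 17.9% and 10.3% of the 39, beside 13.5% and 15.1% of all genes, and 28.2% and 7.69%, beside 15.2% and 17.2%. In both genotypes the lipid exporter Abca1 was among the higher and the engulfment pair Dock1 and Elmo1 among the lower. The list medians were 0.20 and 0.22.

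Of 46 other genes of Fc receptor signalling, 39 were analysed, and Fcrls, an Fc receptor-like gene, stood apart between genotypes. Its WT levels were 344, 272, 582 and 541 and its Arntl-/- levels 158, 141, 308 and 412, differences of -1.12, -0.94, -0.92 and -0.39. Besides Fcrls only the adaptor Lat was past 1.5-fold between genotypes, lower at 6 and 48 h and higher at 24 h, on few reads (72, 8 and 68 in WT and 22, 53 and 38 in Arntl-/- cells at 6, 24 and 48 h). The other genes named by the size of their mean difference were the kinase Src (mean -0.27), the exchange factor Vav3 (0.19) and the ubiquitin ligase Cbl (0.17). At 48 h after KLA, 4 genes of this list were higher and 2 lower in WT cells, and 5 were higher and 1 lower in Arntl-/- cells, with Syk, the cytoplasmic kinase recruited to the phosphorylated gamma chain, higher in both. These shares, 10.3% and 5.13% in WT and 12.8% and 2.56% in Arntl-/- cells, were below those of all genes. The list medians were 0.17 and 0.14.

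For 6 of the 10 genes the log2 level spanned at least 1 over the 8 libraries, and for these the genes with the most similar course were sought, by the root mean square difference of centred log2 levels over the 8 libraries. Axl was nearest to Rilpl1, P4ha2 and Fignl2 (0.18 to 0.21, where the median over all genes was 0.64), and Gas6 to Tulp4, Klf11 and Dcp1b (0.15 to 0.16, median 0.46). Mfge8 was nearest to Ctsk, Fgf11 and Col18a1 (0.10 to 0.15, median 0.76). Fcgr1 was nearest to Lrpap1, Bst1 and S100a1 (0.07 to 0.08, median 0.43) and Fcgr4 to Mib2, S100a1 and Tcn2 (0.10 to 0.13, median 0.52). Fcer1g was nearest to Rps18, Atp5e and Rpl10 (0.03 to 0.04, median 0.39), a pair of ribosomal protein genes and a subunit of ATP synthase. The 8 points share libraries and depth, so these are descriptions.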

How the data were processed

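PolyA RNA of the 8 BMDM libraries was analysed. ChIP-seq samples of the series were not analysed here. The authors aligned paired-end reads to mm9 using STAR and quantified RefSeq exons using HOMER (versions not given in the sources used here), and per the file headers the deposited FPKM are per 10000000 reads, with at most 3 tags per position. The deposited table also holds exon length. 1 fragmentary line and 4 value columns without a matching sample were left out.

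FPKM multiplied by length fell on whole reads (tolerance 0.05) for 100% of low values, which gave depth and counting intervals (exact binomial, 95%). Levels are FPKM over a size factor by median of ratios, and log2 values used a pseudocount of 0.1. A difference was called at 1.5-fold among 10487 genes with at least 100 scaled reads in a WT library. The lowess correction (fraction 0.3) removed each library's trend on level. Named genes were the 10 chosen, Arntl, the 4 genes of each pathway list with the largest absolute mean log2 ratio (before them, any at least 1.5-fold apart in the same direction at all 4 times, of which there were 0), and the 3 nearest genes of each of the 10 with a log2 range of at least 1. Lat, the list genes named after KLA and the single marker genes were chosen after their values were seen. Protein sequences were not used here. The genes and lists were chosen with earlier results of these data known. Steps were tested on simulated data. Tools were pandas 2.3.3, numpy 2.4.6, statsmodels 0.14.6, scipy 1.17.1 and matplotlib 3.10.9 under Python 3.11.15. Alternatives were upper-quartile scaling, values as deposited, the lowess correction, pseudocounts of 1 and 0.01, a 2-fold line, genes with FPKM of at least 1, and leaving out the 6 h libraries.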

Additional observations from a re-analysis of the deposited data

Results flagged for a closer look

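For 6 of the 10 genes the change from 0 h went in opposite directions in the 2 genotypes with both counting intervals clear of 0, each with 1 library per condition, and the difference was not tested. The values are the Arntl-/- change minus the WT change on the log2 scale. At 6 h they were 0.81 for Fcer1g, -0.65 for Pros1, 0.50 for Fcgr3 and 0.43 for Mfge8. At 48 h they were -0.29 for Gas6 and 0.22 for Fcgr2b. By the same rule 19.8% of the 10487 genes analysed went in opposite directions at 6 h, 3.69% at 24 h and 3.99% at 48 h, beside 4, 0 and 2 of the 10. Whatever the interval, the signs were opposite for 49.3% of all genes and 7 of the 10 at 6 h, and for 21.6% and 2 of the 10 at 48 h. By sign alone, after the lowess correction the 6 h values were -0.03 for Fcer1g and -0.09 for Fcgr3, no longer opposite in direction. Pros1 (-0.54) was opposite, with changes of 0.25 in WT and -0.29 in Arntl-/- cells, and so was Mfge8 (0.34), with -0.09 and 0.24. At 48 h the WT change of Gas6 was 0.0055 after the correction and 0.0068 as deposited, near 0, beside -0.34 and -0.33 for Arntl-/-, and Fcgr2b (0.07 after it) was not opposite. As deposited, Fcer1g (0.60), Pros1 (-0.87) and Fcgr3 (0.28) were opposite in sign at 6 h, the last with an Arntl-/- change of 0.03, and Mfge8 (0.21) and Fcgr2b (0.18) were not.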

How the results depend on the processing

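The conditions share only 1 replicate number, so that number could not serve as a block. The genotypes match by time, and a fit with time as a block was not run, since the times are different conditions. With 1 library per condition, none could be left out within a condition. Counts are of the 10 genes past 1.5-fold unless a list is named. Between genotypes the count at 0 h (1) was 0 as deposited, 0 with a pseudocount of 1 and 0 at a 2-fold line. At 24 h (0) it was 1 as deposited. At 48 h (1) it was 0 as deposited, 0 after the lowess correction and 0 at 2-fold. At a 2-fold line the KLA counts were 0 for WT at 6 and 24 h (1 each), and for Arntl-/- 0 after 6 h (2), 1 after 24 h (3) and 2 after 48 h (5). The count of differing changes at 6 h (2, Pros1 and Fcer1g) was 1 after the lowess correction, and that gene was Axl (0.66, against 0.43 before it), with Pros1 (-0.54) and Fcer1g (-0.03) short of the line. Without the 6 h libraries 1 gene, Pros1, had its Arntl-/- levels apart from its WT levels (0 with them). Genes on the same side at all 4 times, 1 here, were 2 as deposited, 2 after upper-quartile scaling and 4 after the lowess correction. Efferocytosis genes between genotypes were 0 at 0 h at 2-fold (2), and at 6 h (1) were 2 as deposited, 2 after upper-quartile scaling and 0 at 2-fold. Fc signalling genes were 2 at 0 h after the lowess correction (1) and, at 2-fold, 0 at 6 h (2), 1 at 24 h (2) and 0 after 48 h (1). The cause of these shifts was not tested. As deposited, the median of all genes moved by 0.13 in WT cells at 6 h and by -0.13 and -0.18 at 48 h in WT and Arntl-/- cells. Single-library differences cannot be set against variation between cultures, and of the 10 genes Axl rested on the fewest reads. On the wider background (FPKM of at least 1) the share past 1.5-fold after KLA was between 22.7% (Arntl-/- at 6 h) and 43.2% (Arntl-/- at 48 h).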
